A study of Mus musculus with 8 samples.

Results

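The 10 genes described here encode enzymes that make phosphatidylcholine, phosphatidylethanolamine and phosphatidylserine, which are phospholipids of cell membranes. The members were chosen by name (*Pemt*, *Pcyt1a*, *Pcyt2*, *Chka*, *Chkb*, *Cept1*, *Chpt1*, *Ptdss1*, *Ptdss2* and *Lpcat3*) and matched by Ensembl identifier to the deposited gene counts. All 10 are among the 18095 genes of the count table and among the 14866 genes that passed the expression filter. Livers came from male mice aged 12 weeks on a high-fat diet (HFD), of which 4 were WT and 4 were Inpp4b-/-. INPP4B is a phosphatase that removes a phosphate from phosphoinositide lipids. The sample labels give a C57BL/6 background and the methods of the study an FVB background, into which the knockout was bred. The mothers received the HFD before mating, during pregnancy and through lactation, so both groups share it from conception. RNA was depleted of ribosomal RNA and sequenced with 1 library per mouse. Libraries labelled Inpp4b-/- are called knockout-labelled here and those labelled WT are called WT-labelled. The study asked which liver pathways differ between the genotypes on this diet.

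In hepatocytes, phosphatidylcholine is made by the Kennedy pathway, in which choline is phosphorylated, activated with CTP and joined to diacylglycerol, and by a liver route in which phosphatidylethanolamine is methylated. Phosphatidylethanolamine comes from a parallel ethanolamine branch or from phosphatidylserine, which is made by exchange of head groups. The liver is known for needing phosphatidylcholine to secrete very-low-density lipoprotein and bile. After synthesis, the fatty acids of a phospholipid can be exchanged, which changes how fluid a membrane is.

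No member passed the test between the genotypes, and the largest estimated difference was a 1.35-fold higher level of *Lpcat3* in the knockout-labelled libraries. A gene was called where edgeR's quasi-likelihood test gave an adjusted p (Benjamini-Hochberg) below 0.10 together with a change of more than 1.3-fold. By this rule 0 of 10 members were called, and 1.17% of all tested genes were (0.552% higher and 0.619% lower). DESeq2 likewise called 0 of 10 members, and 4.04% of the genes it tested. At an adjusted p below 0.10 and any fold, DESeq2 called 1 member (*Chpt1*) and 4.83% of its genes, an alternative chosen after seeing the data. With an unadjusted p under 0.05 in edgeR, 2 members (*Chpt1* and *Lpcat3*) were higher in the knockout-labelled libraries, and 6.8% of all tested genes were higher at that level. The median log2 fold change was 0.07 over the members and 0.00 over all tested genes. The estimate was above 0 for 7 of 10 members, as it was for 50.4% of all tested genes. The groups did not overlap for 1 member, *Chpt1*, which was higher, where 4.63% of all tested genes were higher without overlap and 4.09% lower (8.72% in either direction).

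The knockout-labelled libraries held 32738435 to 36662531 counts each and the WT-labelled libraries 25893430 to 31427831. *Inpp4b* had 33, 10, 9 and 14 counts in the knockout-labelled replicates 1 to 4, and the WT-labelled replicates had 6, 20, 5 and 8. The targeted gene was thus not lower under the knockout label, and every direction below rests on the labels. A count per gene does not tell whether reads fell in the deleted part. The 6 hepatocyte markers (such as *Alb* and *Apob*) were summed in CPM (counts scaled to a common TMM-normalized library total). Their sums were 78019 to 96258 CPM in the knockout-labelled libraries and 74902 to 79895 CPM in the WT-labelled libraries. None of the 6 was called, and the estimate was above 0 for only 2 of them, so the higher sums do not describe most of these markers. Sums for the other cell types were 29.7 to 40.6 against 23.7 to 31.6 CPM for cholangiocytes, 115 to 157 against 116 to 147 CPM for stellate and endothelial cells, and 208 to 346 against 114 to 431 CPM for erythroid cells. Of these genes 1 was called, *Hba-a2*, lower and with a near-identical copy. *Cela1*, the 1 pancreas marker analysed here, had 42.3 to 58.8 against 32.5 to 59.1 CPM. The adipocyte markers were not analysed here. Lower numbers of a cell type and less RNA per cell cannot be told apart in whole liver.

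The levels of the 10 genes differed far more from gene to gene than between the genotypes. Per kilobase of annotated exon, *Pemt* had a mean of 144 CPM over the 8 libraries and *Pcyt2* 124 CPM. *Lpcat3* (28.7 CPM per kilobase), *Chpt1* (21.2) and *Cept1* (17.9) came next. *Ptdss1* had 9.85, *Pcyt1a* 8.76, *Chka* 3.09, *Ptdss2* 2.12 and *Chkb* 0.325 CPM per kilobase. The ranges over the libraries did not overlap between *Pcyt2* and *Lpcat3*, *Cept1* and *Ptdss1*, *Pcyt1a* and *Chka*, or *Ptdss2* and *Chkb*. The other neighbours in this order overlapped. Within libraries, *Pemt* was above *Pcyt2*, *Lpcat3* above *Chpt1* and *Chka* above *Ptdss2* in 8 of 8. *Chpt1* was above *Cept1* in 7 of 8 libraries and *Ptdss1* above *Pcyt1a* in 5 of 8. The exon length covers every annotated isoform of a gene, so these levels are approximate for genes with long alternative exons such as *Chka* (12024 bases of exon).

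**Figure D1:**
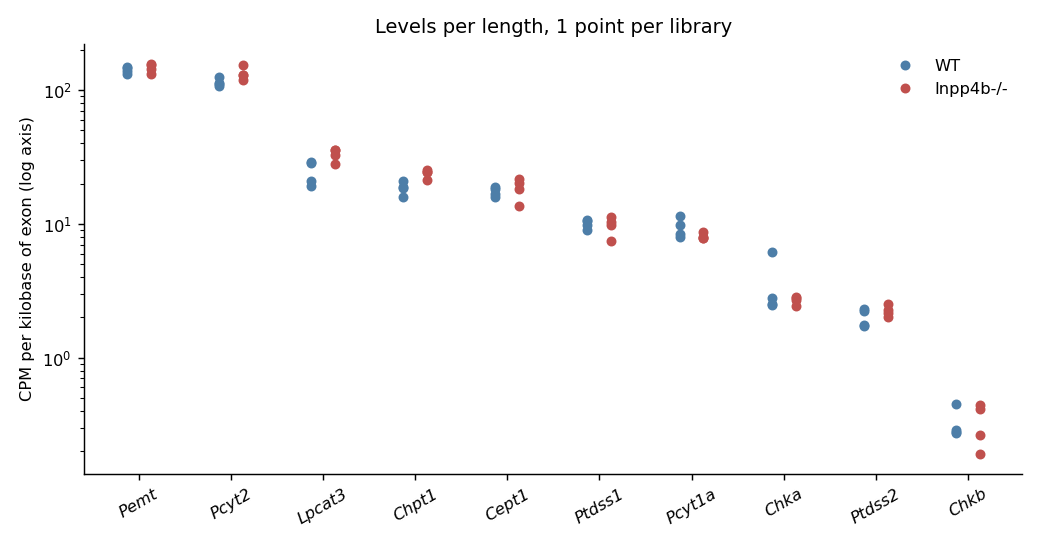
CPM per kilobase of annotated exon (log axis) for the 10 phospholipid synthesis genes, with 1 point per library and the genotypes in 2 colours. *Pemt* (mean 144) and *Pcyt2* (124) lie highest and *Chkb* (0.325) lowest, and the genotypes overlap in every gene except *Chpt1*.

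Choline kinases catalyse the first step of the Kennedy pathway. *Chka* (ENSMUSG00000024843, chromosome 19 of GRCm38, 3851773 to 3894369) encodes choline kinase alpha. It was at 33.9, 32.4, 29.4 and 33.5 CPM in knockout-labelled replicates 1 to 4 and at 30.4, 33.3, 29.6 and 74.7 CPM in WT-labelled replicates 1 to 4. WT replicate 4 was thus far above the other 7 libraries, which lay between 29.4 and 33.9 CPM. The log2 fold change of *Chka* (Inpp4b-/- minus WT) was -0.38 (standard error 0.27, adjusted p in edgeR = 0.582), and its 95% interval ran from -0.99 to 0.24. Without WT replicate 4 it was 0.05 (adjusted p in edgeR = 0.834), so the direction of the estimate came from that library.

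*Chkb* (ENSMUSG00000022617, chromosome 15, 89426360 to 89429908), the beta isoform of choline kinase, was close to the lower end of detection. It was counted 21, 31, 39 and 48 times in knockout-labelled replicates 1 to 4 and 23, 28, 25 and 36 times in the WT-labelled libraries. The groups overlapped, with 1.0 ± 0.363 CPM (SD, n = 4) in the knockout-labelled libraries and 0.989 ± 0.263 CPM (SD, n = 4) in the WT-labelled libraries. Its log2 fold change was 0.02 (95% interval from -0.80 to 0.84, adjusted p in edgeR = 0.987), an interval that holds changes of over 1.5-fold in both directions. Dropping single libraries moved it between -0.16 and 0.22, so its sign was not set. Of the 3061 exon bases of *Chkb*, 1552 are shared on the same strand with *Gm44502*, and reads from such bases may not be assigned to either gene. The low level of *Chkb* is therefore uncertain.

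The enzyme that activates phosphocholine with CTP, the rate-limiting step of the choline branch, is encoded by *Pcyt1a* (ENSMUSG00000005615, chromosome 16, 32430921 to 32475070). *Pcyt1a* was at 64.9, 58.6, 58.5 and 58.7 CPM in the knockout-labelled libraries and at 62.4, 84.7, 73.1 and 58.8 CPM in the WT-labelled libraries. The knockout-labelled libraries lay close together, with a coefficient of variation of 5.22%, and WT replicates 1 and 4 fell within their range. The log2 fold change was -0.21 (standard error 0.12, 95% interval from -0.48 to 0.05, adjusted p in edgeR = 0.459). Leaving out 1 library at a time moved it from -0.29 to -0.11. On the opposite strand *Slc51a* overlaps 567 of the 7412 exon bases of *Pcyt1a*.

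SREBP transcription factors act at sterol regulatory elements. The study followed the SREBP1 protein, so the 250 bases before the RefSeq start of each member were searched for such an element, spelled TCACNCCAC, on both strands. RefSeq start windows were found for 8 of 10 members (13 windows). The element lay in 2 windows of *Pcyt1a*, which overlap each other, and in none of the other 7 members with a window. Among all 32851 windows of this length, 1.05% hold it. The first window of *Pcyt1a* is chr16:32430671-32430920 of GRCm38.p6, forward strand, and is shown with the element in capitals, starting 116 bases before the gene start.
Pcyt1a: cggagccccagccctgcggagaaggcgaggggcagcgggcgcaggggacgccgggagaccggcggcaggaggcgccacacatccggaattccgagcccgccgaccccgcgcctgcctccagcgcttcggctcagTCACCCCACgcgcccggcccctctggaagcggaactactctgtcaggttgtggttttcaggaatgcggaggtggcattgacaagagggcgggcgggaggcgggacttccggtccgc
*Srebf1*, the gene of SREBP1, had 402 ± 137 CPM (SD, n = 4) in the knockout-labelled libraries and 270.2 ± 130.4 CPM (SD, n = 4) in the WT-labelled libraries, and its log2 fold change was 0.57 (adjusted p = 0.492 in edgeR). The 95% interval of *Srebf1* ran from -0.19 to 1.34, and neither *Srebf1* nor *Pcyt1a* was called. The study reports more of both the precursor and the cleaved form of SREBP1 protein in knockout livers, without a significant increase of *Srebf1* mRNA. Counts of *Srebf1* do not measure the cleaved protein, and whether SREBP1 acts on *Pcyt1a* was not tested. A match of letters is a description of the window and does not show binding.

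*Pcyt2* (ENSMUSG00000025137, chromosome 11, 120610087 to 120617936) encodes the enzyme that activates phosphoethanolamine with CTP, the controlling step of the ethanolamine branch. Its values were 566, 521, 561 and 667 CPM in knockout-labelled replicates 1 to 4 and 483, 469, 492 and 545 CPM in the WT-labelled libraries. WT replicate 4 was above the lowest knockout-labelled library, so the groups overlapped by 1 library on each side. The log2 fold change was 0.22 (standard error 0.10, unadjusted p = 0.0537 and adjusted p = 0.370 from edgeR). The ratio of *Pcyt2* to *Pcyt1a* counts was 8.71, 8.89, 9.60 and 11.4 in the knockout-labelled libraries and 7.74, 5.54, 6.73 and 9.28 in the WT-labelled libraries. On average this ratio was 9.64 ± 1.21 (SD, n = 4) and 7.32 ± 1.58 (SD, n = 4), and WT replicate 4 again lay within the range of the other group.

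The last step of the Kennedy pathway joins the activated head group to diacylglycerol. *Chpt1* (ENSMUSG00000060002, chromosome 10, 88452745 to 88504073) encodes choline phosphotransferase. It was at 205, 211, 203 and 176 CPM in knockout-labelled replicates 1 to 4 and at 158, 156, 174 and 132 CPM in WT-labelled replicates 1 to 4. All 4 knockout-labelled libraries were thus above all 4 WT-labelled ones, with a small gap between 174 and 176 CPM. The fold change of 1.29 (95% interval from 1.10 to 1.51) was below the threshold of 1.3, and edgeR's adjusted p was 0.173 (unadjusted p = 0.00555). DESeq2 gave an adjusted p of 0.0719 with a fold change of 1.28, so that the fold threshold alone kept it from being called there. Fits that each dropped 1 library put its log2 fold change at 0.29 to 0.42, with adjusted p from edgeR of 0.175 to 0.345. Of the 8324 exon bases of *Chpt1*, 660 overlap *Sycp3* on the opposite strand, and reads from them cannot be told apart without strand.

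*Cept1* (ENSMUSG00000040774, chromosome 3, 106502260 to 106547802), whose product uses both choline and ethanolamine intermediates, had 57.4 ± 10.6 CPM (SD, n = 4) in the knockout-labelled libraries and 54.2 ± 4.16 CPM (SD, n = 4) in the WT-labelled libraries. Inpp4b-/- replicate 4 was the lowest of the 8 libraries (42.8 CPM) and Inpp4b-/- replicate 2 the highest (66.9 CPM). The log2 fold change was 0.08 (95% interval from -0.22 to 0.38, adjusted p in edgeR = 0.825). *Cept1* shares 771 of its 3116 exon bases with *Dennd2d* on the opposite strand. Counts of *Chpt1* were 3.26, 3.15, 3.57 and 4.12 times those of *Cept1* in the knockout-labelled libraries and 2.81, 3.0, 3.49 and 2.23 times in the WT-labelled libraries, and these ratios overlapped.

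**Figure D2:**
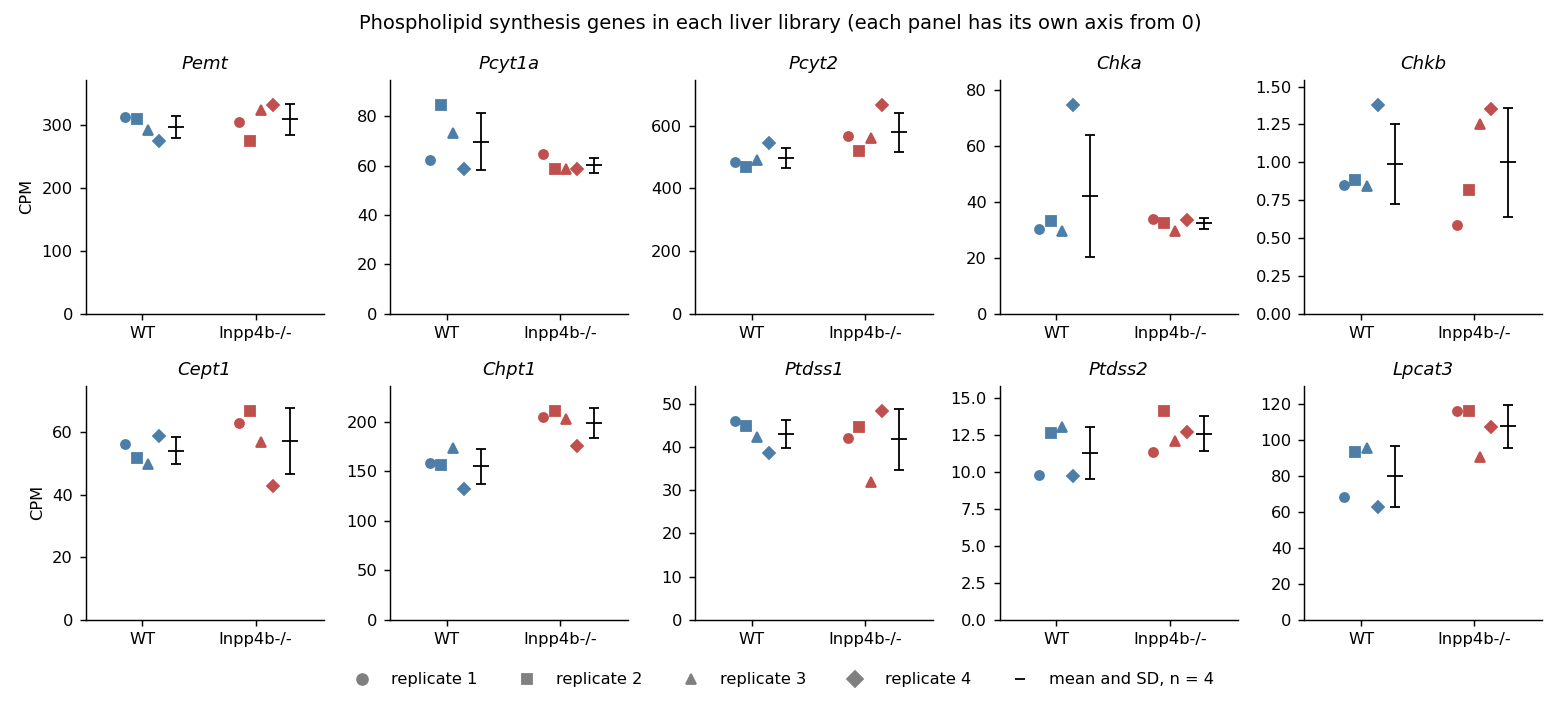
CPM of each member in the 4 WT and 4 Inpp4b-/- libraries, with the marker shape giving the replicate and the black bar the mean and SD (n = 4). *Chpt1* is the gene without overlap between the groups, *Chka* has 1 WT library at 74.7 CPM against 29.4 to 33.9 CPM in the other 7, and the other genes overlap.

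*Pemt* (ENSMUSG00000000301, chromosome 11, 59970614 to 60046489) encodes phosphatidylethanolamine N-methyltransferase, the enzyme of the liver methylation route. *Pemt* was at 305, 275, 323 and 332 CPM in the knockout-labelled libraries and at 313, 309, 292 and 275 CPM in the WT-labelled libraries. The groups had nearly the same range. The fold change was 1.04 with a 95% interval from 0.904 to 1.19 (adjusted p in edgeR = 0.830), so a change of 1.3-fold in either direction lies outside the interval. Such an interval, within 1.3-fold of no change, was found for 2 members, *Pemt* and *Ptdss1*, and for 23.4% of all tested genes. Leaving out single libraries moved the log2 fold change of *Pemt* between 0.02 and 0.11.

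The phosphatidylserine synthases exchange the head group of an existing phospholipid for serine. *Ptdss1* (ENSMUSG00000021518, chromosome 13, 66932830 to 66998401) acts on phosphatidylcholine and was at 42.1, 44.5, 31.9 and 48.3 CPM in knockout-labelled replicates 1 to 4 and at 45.9, 44.9, 42.2 and 38.6 CPM in the WT-labelled libraries. Inpp4b-/- replicates 3 and 4 were the lowest and the highest of the 8 libraries. Its fold change was 0.972 (95% interval from 0.798 to 1.18, adjusted p in edgeR = 0.919), and without Inpp4b-/- replicate 3 the log2 fold change turned from -0.04 to 0.07. *Ptdss2* (ENSMUSG00000025495, chromosome 7, 141122382 to 141157606), which acts on phosphatidylethanolamine, had 12.6 ± 1.17 CPM (SD, n = 4) in the knockout-labelled libraries and 11.3 ± 1.77 CPM (SD, n = 4) in the WT-labelled libraries. The log2 fold change of *Ptdss2* was 0.16 (95% interval from -0.15 to 0.47, adjusted p in edgeR = 0.657), and 2 WT-labelled libraries (12.6 and 13.0 CPM) lay within the range of the other group.

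*Lpcat3* (ENSMUSG00000004270, chromosome 6, 124663027 to 124704418) encodes the acyltransferase that puts polyunsaturated fatty acids into lysophosphatidylcholine and is known as a target of the liver X receptors. It was at 116, 116, 90.7 and 107 CPM in knockout-labelled replicates 1 to 4 and at 68.3, 93.3, 95.4 and 62.4 CPM in WT-labelled replicates 1 to 4. The WT-labelled libraries were split, with replicates 1 and 4 below 70 CPM and replicates 2 and 3 just above the lowest of the knockout-labelled libraries. The fold change was 1.35 (95% interval from 1.06 to 1.70), the largest among the members, but it did not pass the test (unadjusted p = 0.0184, adjusted p = 0.260 from edgeR, and 0.172 from DESeq2). Fits that each dropped 1 library put its log2 fold change at 0.33 to 0.52, and it was called in none of them. *Lpcat3* shares 334 of its 3268 exon bases with *Emg1* on the opposite strand. *Nr1h3*, the gene of liver X receptor alpha, had a log2 fold change of -0.07 (adjusted p in edgeR = 0.710).

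*Chpt1* and *Lpcat3* had the lowest p-values among the members, and their upstream sequence is shown for that reason. Their RefSeq starts lie inside the genes as GENCODE draws them, so that 103 of the 250 bases searched for *Chpt1* and 77 of the 250 for *Lpcat3* fall within the gene. Only the bases before the GENCODE gene are printed, with the CCAAT box (CCAAT) in capitals and GRCm38.p6 as the build. *Chpt1* is on the reverse strand (chr10:88504074-88504220) and *Lpcat3* on the forward strand (chr6:124662854-124663026), each written towards the gene. Of the 3 CCAAT boxes in the *Lpcat3* window, 1 lies before the gene and 2 inside it.
Chpt1: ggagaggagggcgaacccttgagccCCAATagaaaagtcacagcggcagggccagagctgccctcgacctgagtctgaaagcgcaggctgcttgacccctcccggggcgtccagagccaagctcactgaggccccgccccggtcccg
Lpcat3: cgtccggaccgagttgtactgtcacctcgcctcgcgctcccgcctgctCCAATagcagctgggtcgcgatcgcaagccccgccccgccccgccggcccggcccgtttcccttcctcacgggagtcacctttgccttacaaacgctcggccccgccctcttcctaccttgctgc
A CCAAT box was present in 5 of the 13 windows of members (of *Chka*, *Chkb*, *Chpt1*, *Lpcat3* and *Pemt*) and in 33.8% of all windows. A GC box (GGGCGG), searched like the CCAAT box on both strands, was present in 8 of the 13 windows, from 6 members, and in 32.7% of all windows. Liver X receptors act with RXR at a direct repeat known as DR4 and PPARs at one known as DR1. In their exact consensus, on both strands, neither was in a window of a member, where 0.0152% and 0.0335% of all windows hold them, nor was the E-box CACGTG, found in 6.02% of all windows. The absence of these letters says nothing of sites outside the windows or of sites that depart from this spelling.

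**Figure D3:**
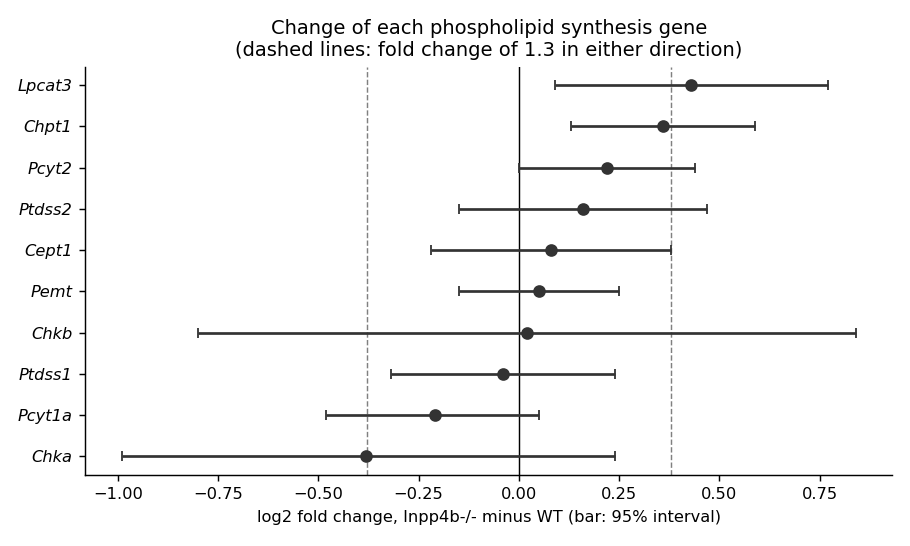
Log2 fold change (Inpp4b-/- minus WT) of each member with its 95% interval from edgeR, and dashed lines at a fold change of 1.3. The intervals of *Lpcat3* (0.09 to 0.77) and *Chpt1* (0.13 to 0.59) lie above 0, those of *Pemt* and *Ptdss1* lie between the dashed lines, and *Chka* and *Chkb* have the widest.

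The spread between libraries differed among the members. In the WT-labelled libraries the coefficient of variation of CPM ran from 5.96% for *Pemt* to 52.0% for *Chka*. In the knockout-labelled libraries it ran from 5.22% for *Pcyt1a* to 36.3% for *Chkb*. With 21 to 48 counts of *Chkb* in these libraries, its value also holds counting noise. WT replicate 4 held the lowest value of 4 members (*Pemt*, *Chpt1*, *Ptdss2* and *Lpcat3*) and the highest of 2 (*Chka* and *Chkb*). This library also had the lowest total count of the 8, at 25893430. The part of this library in the results was measured by leaving it out, which turned the direction of *Chka* and no other member and left 0 members called.

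Around the members, 85 genes of connected steps of phospholipid metabolism were listed, of which 79 were tested. Of these 79, 2 were called, both higher in the knockout-labelled libraries, where 0.552% of all tested genes were called higher. The called genes were *Ahcy* and *Lpcat2*. None of the 79 was called lower. At an unadjusted p under 0.05 in edgeR, 7 of the 79 were higher and 3 lower, where 6.8% and 7.14% of all tested genes were. DESeq2 called 3 of the 85 listed genes (*Ahcy*, *Lpcat2* and *Lpin3*), all higher, where it called 4.04% of all genes it tested. The median log2 fold change of the 79 genes was 0.05, and 48 of them had an estimate above 0.

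*Ahcy* (chromosome 2, 155059310 to 155074497) encodes S-adenosylhomocysteine hydrolase, which clears the product that inhibits methyltransferases such as PEMT. It was at 720.3, 986, 1428 and 1150.3 CPM in knockout-labelled replicates 1 to 4 and at 580.4, 588, 528 and 631 CPM in WT-labelled replicates 1 to 4. Each knockout-labelled library was above every WT-labelled library, and the first group was the more spread. *Ahcy* rose by a fold change of 1.84 (95% interval from 1.39 to 2.44, log2 fold change 0.88 with standard error 0.18, adjusted p in edgeR = 0.0804), and DESeq2 gave an adjusted p of 0.000747. The call was lost without Inpp4b-/- replicate 2, 3 or 4 (adjusted p in edgeR = 0.178, 0.167 and 0.160) and without WT replicate 1, 3 or 4 (0.189, 0.163 and 0.116), where the log2 fold change was 0.71 to 0.92. The other 13 genes of the methyl donor and choline oxidation list did not pass, with a median log2 fold change over the 14 genes of 0.07. Among them *Mat1a*, which makes the methyl donor S-adenosylmethionine in liver, had a log2 fold change of 0.02 (95% interval from -0.46 to 0.50), and *Gnmt*, which consumes it, one of -0.04 (from -0.61 to 0.53).

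*Lpcat2* (chromosome 8, 92855339 to 92919279) encodes an acyltransferase of lysophosphatidylcholine that is known from inflammatory cells. It was counted 42, 52, 36 and 25 times in knockout-labelled replicates 1 to 4 and 10, 13, 9 and 6 times in the WT-labelled libraries, that is 0.702 to 1.37 CPM against 0.230 to 0.409 CPM. The groups did not overlap, at a level far below that of *Lpcat3*. *Lpcat2* rose by a log2 fold change of 1.73 (standard error 0.37, adjusted p in edgeR = 0.0871), with an adjusted p of 0.00465 from DESeq2. It lost the call without any 1 of the libraries except WT replicate 2, with edgeR's adjusted p of 0.101 to 0.234, and with no filter beyond 1 count (0.111). Markers of Kupffer cells and leukocytes had an estimate above 0 in 6 of 6 genes, with none called, and summed to 85.7 to 161 CPM in the knockout-labelled libraries and 45.5 to 122 CPM in the WT-labelled libraries. Their part in the result of *Lpcat2* was not tested. *Lpcat2* lies 10.7 Mb from *Inpp4b* on the same chromosome, where 39 of 828 tested genes were called (4.71%), and the part of that position was not tested either.

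**Figure D4:**
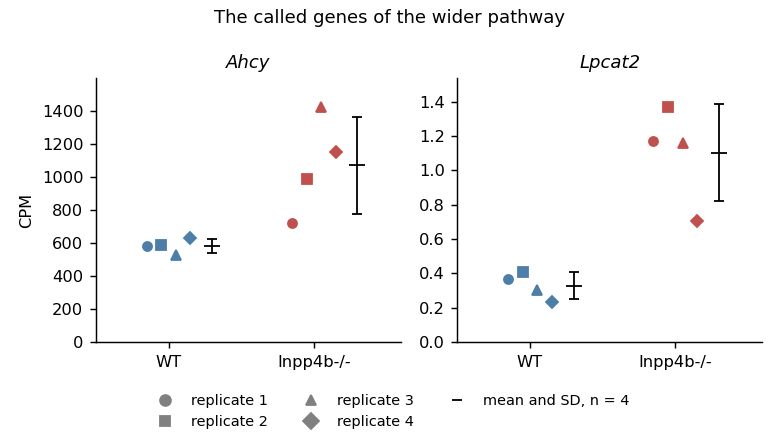
CPM of *Ahcy* and *Lpcat2* in the 4 WT and 4 Inpp4b-/- libraries, with marker shapes for replicates and black bars for mean and SD (n = 4). For both genes all Inpp4b-/- libraries lie above all WT libraries, *Ahcy* at 720.3 to 1428 CPM against 528 to 631 CPM and *Lpcat2* at 0.702 to 1.37 CPM against 0.230 to 0.409 CPM.

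Besides *Ahcy* and *Lpcat2*, edgeR called no gene of the 9 lists, and DESeq2 called *Lpin3*. Of the 6 tested lysophospholipid acyltransferases, the 5 besides *Lpcat2* did not pass, among them *Lclat1* (log2 fold change 0.06) and *Lpgat1* (-0.33, adjusted p in edgeR = 0.480). The 7 tested genes of choline and ethanolamine uptake and their kinases had a median of 0.02, with *Etnk2*, ethanolamine kinase, at -0.11 (95% interval from -0.66 to 0.44). *Pisd*, which makes phosphatidylethanolamine from phosphatidylserine in mitochondria, had 19.0 ± 1.95 CPM (SD, n = 4) and 15.4 ± 1.04 CPM (SD, n = 4) in the knockout-labelled and WT-labelled libraries, without overlap (log2 fold change 0.30, adjusted p in edgeR = 0.251). Reads of *Pisd* can be shared with its pseudogene copies and with *Gm20671*, which covers 1156 of its 5750 exon bases. *Selenoi*, ethanolamine phosphotransferase, was at 0.06 on the log2 scale (95% interval from -0.19 to 0.31).

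The 15 tested genes of the route through phosphatidic acid, diacylglycerol and CDP-diacylglycerol had a median of -0.01 on the log2 scale. Among them *Agpat2* was at 0.25 (adjusted p in edgeR = 0.301) and *Agpat3* at 0.09 (0.606). The 5 genes of the ether lipid route had a median of -0.11, with *Gnpat* and *Pex7* at 0.05 and 0.12. For the 15 phospholipases and genes of head group turnover the median was 0.14, with *Pla2g12b* at 0.17 and *Gde1*, a glycerophosphodiesterase, at -0.34 (adjusted p in edgeR = 0.345). Among the 7 genes of phospholipid transfer and export, with a median of 0.12, *Abcb4*, the exporter of phosphatidylcholine into bile, was at 0.14 (95% interval from -0.15 to 0.43) and *Stard10*, a phospholipid transfer protein, at 0.00 (from -0.21 to 0.21). The 7 regulators had a median of -0.05.

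**Figure D5:**
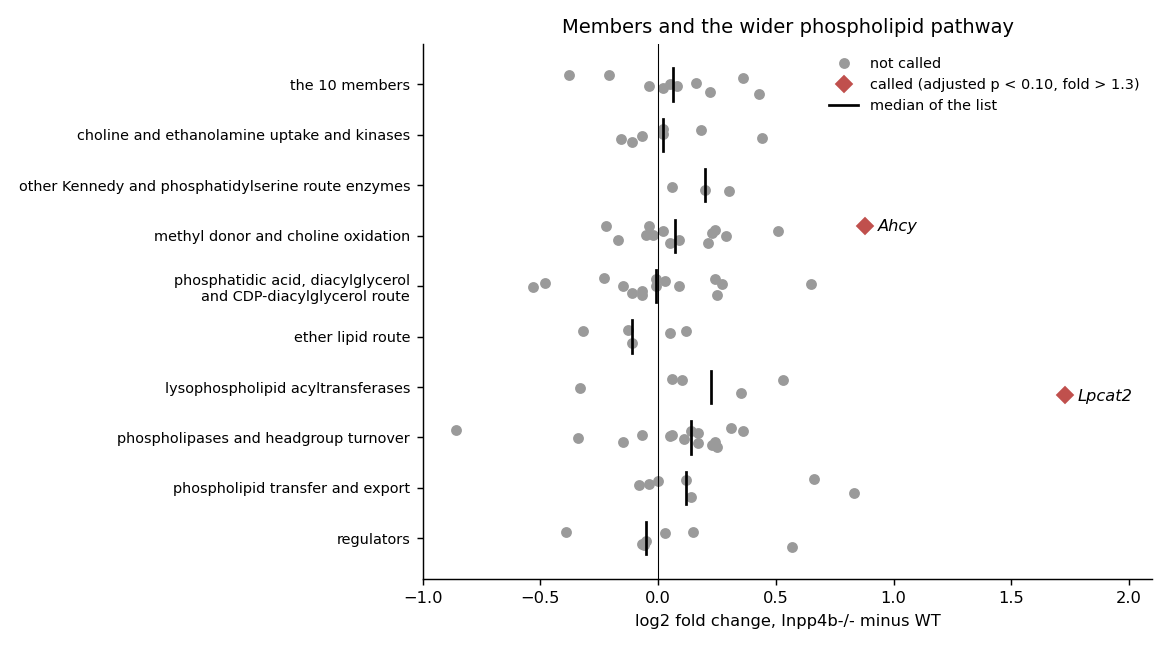
Log2 fold change (Inpp4b-/- minus WT) of the 10 members and of the 79 tested genes of the wider pathway by list, with 1 point per gene, black ticks for list medians and red diamonds for called genes. Most points lie near 0, and the called genes are *Ahcy* (0.88) and *Lpcat2* (1.73).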

How the data were processed

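The livers of 4 WT and 4 Inpp4b-/- mice on HFD were profiled by RNA-seq. The labels gave genotype, replicate and age, and the series' design gave the diet. The authors aligned reads to GRCm38 with HISAT2 and with STAR, and kept genes that DESeq2 found to differ with both aligners. Only the deposited raw counts from HISAT2, made per gene with HTSeq, were used here, and they hold 18095 genes. Annotation release and strand setting are not given in the sources used here, and the named library kit does not mark strand. A table that the authors normalized with DESeq2 was not used here. The labels do not say whether animals shared a litter or cage. The members and the gene lists were chosen with earlier results of these data known.

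Identifiers were matched to GENCODE M21 (18095 of 18095). The model was fitted in edgeR 4.0.16 to the 14866 genes that filterByExpr kept (TMM normalization, glmQLFit and glmQLFTest, no covariate), and p-values were adjusted by Benjamini-Hochberg over all tested genes. Standard errors are the size of the log2 fold change divided by the root of the F statistic, and the 95% intervals use the fit's degrees of freedom (median 9.83). R 4.3.3 and Python 3.11.15 were used. The procedure was tested on simulated counts of 14866 genes for Inpp4b-/- against WT, where 55 of 100 genes changed by 2-fold and 81 of 100 changed by 4-fold were recovered and 6.85% of calls were false.

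The genes named are the 10 members and, of each other list, the called genes and the 2 with the highest level per length, of which 1 gene is not reported here. Alternatives were DESeq2 1.42.0, other normalizations, filters and thresholds, a block for replicate number, and fits without each library. Depth was 25893430 to 36662531 counts per library, and the low counts of *Chkb* and *Lpcat2* limit precision. Upstream sequences are from RefSeq (GRCm38.p6).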

Additional observations from a re-analysis of the deposited data

Results flagged for a closer look

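In 58 groups of 4 libraries (the members and named genes in each genotype), 3 held a library farther from the others than Dixon's limit at 95%, where chance at about 1 in 20 would give 2.9. WT replicate 4 had 74.7 CPM of *Chka* against 29.6 to 33.3 CPM in the other 3. The same library had 1.38 CPM of *Chkb* against 0.842 to 0.882 CPM, a gene of 23 to 36 counts in these libraries. Inpp4b-/- replicate 1 had 64.9 CPM of *Pcyt1a* against 58.5 to 58.7 CPM, a small difference that stands out because the other 3 lie so close together.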

How the results depend on the processing

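The number of members called was 0 under the alternative normalizations, filters, thresholds, fits without single libraries and DESeq2. It was 1 (*Chpt1*) with DESeq2 and no fold change threshold, an alternative chosen after seeing the data. Under that alternative 822 of the 17016 genes that DESeq2 tested were called, 382 higher and 440 lower. With the fold threshold DESeq2 called 688 of its 17016 genes (327 higher, 361 lower). Over the 14866 genes tested in edgeR, 174 were called (82 higher, 92 lower), against 71 at an adjusted p under 0.05 (32 and 39). Leaving out 1 library at a time gave 53 to 345 (26 to 143 higher and 27 to 202 lower), the lowest without Inpp4b-/- replicate 2 and the highest without WT replicate 2. In the wider pathway 2 genes were called, against 0 at an adjusted p under 0.05, 1 with no filter beyond 1 count, 1 with at least 10 counts in every library, and 0 to 2 without single libraries. The stricter threshold lowers a count by construction, and the cause of the other differences was not tested.

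The labels do not say that same-numbered libraries form pairs. Deviations of same-numbered libraries had correlations of -0.17 to -0.0104, and those of other pairs across the genotypes -0.0339 to 0.139. With 4 libraries per group, these values cannot decide whether libraries shared a batch or litter. With a replicate block 26 genes were called (9 higher, 17 lower), 0 of the members and 0 of the wider pathway (adjusted p in edgeR of 0.28 for *Ahcy* and 0.255 for *Lpcat2*), and *Chkb* had a log2 fold change of -0.023. Signs turned in fits without single libraries for *Chka* (-0.51 to 0.0544, the latter without WT replicate 4), *Chkb* (-0.16 to 0.22) and *Ptdss1* (-0.12 to 0.069, the latter without Inpp4b-/- replicate 3). The same happened, with no call, for *Etnk2* (-0.33 to 0.052), *Mat1a* (-0.12 to 0.14), *Gnmt* (-0.21 to 0.11) and *Stard10* (-0.0528 to 0.0491). *Stard10* was also at -0.0073 with DESeq2, -0.0078 with its size factors and -0.0034 with the block. The other 7 members kept their sign in all fits.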

Other observations

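In the wider pathway, 8 of the 79 tested genes did not overlap between the genotypes, 7 of them higher in the knockout-labelled libraries. They include *Ahcy* and *Lpcat2*, and edgeR called none of the other 6, of which the 3 named here were picked after their values were seen. For comparison, 4.63% of all tested genes were higher without overlap and 4.09% lower (8.72% in either direction). *Lpin3*, a phosphatidate phosphatase, was at 4.91, 5.86, 4.99 and 5.98 CPM in the knockout-labelled libraries and at 4.24, 2.96, 3.10 and 3.53 CPM in the WT-labelled libraries (log2 fold change 0.65, adjusted p in edgeR = 0.166), and it was the third gene called by DESeq2. *Mat2b*, the regulatory subunit of a methionine adenosyltransferase, was at 37.2 to 40.1 CPM against 25.7 to 36.5 CPM (log2 fold change 0.29, adjusted p in edgeR = 0.302). *Agps*, an enzyme of ether lipid synthesis in peroxisomes, was the 1 gene lower without overlap, at 10.5 to 13.4 CPM against 13.6 to 15.4 CPM (log2 fold change -0.32, adjusted p in edgeR = 0.248).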
